A study of Mus musculus with 20 samples.

Results

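Donor CD8+ effector T cells recovered from the small intestine were compared with those recovered from the blood, in a mouse model of acute graft-versus-host disease. The comparison used 9 of the 20 arrays of the series, small intestine 1 to 4 against blood 1 to 5. They were chosen by site, and by a measured property: the array labelled small intestine 5 carries almost none of the intestinal transcripts found on the other 4, so it stood outside the fit and is given as a side value. An array labelled liver 5 carried Paneth cell transcripts (mean 2.33), and whether the labels of these 2 arrays were exchanged was not tested, so "small intestine 5" below means only the array with that label. Because Paneth cell and intestinal epithelium transcripts chose the arrays, they are described below with no test of their own. They do stay in the counts and shares of genes called.

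All groups shared 1 transplant model. Recipients were female C57Bl/6 m-act OVA mice 8 to 16 weeks old, which carry an ovalbumin transgene under the ubiquitously active CAG promoter. They received 11 Gy of total body irradiation in 2 doses of 5.5 Gy, then 3000000 bone marrow cells and 15000000 splenocytes from OT-I mice. OT-I T cells carry a receptor for an ovalbumin peptide and were of CD45.1 type, whereas the other graft cells and the recipients were of CD45.2 type. On day 4 the cells were taken from blood, small intestine, liver and lung by magnetic selection of CD45.1+ cells, with no further sort named. There was no untransplanted or syngeneic group, so all arrays come from diseased recipients. Total RNA went through a pair of linear amplification rounds and was hybridised, in 1 colour (Cy3), to Agilent mouse arrays. Which animal gave which array is not in the labels, and a p-value here measures nothing beyond the spread among the arrays. The comparison addresses how T cells inside a target organ of the disease differ from those still in circulation.

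Acute graft-versus-host disease is the attack of donor T cells on the recipient's tissues, with the gut as a main target organ. Activated CD8+ T cells multiply in lymphoid organs, enter the blood, and reach the gut wall through homing receptors such as the integrin alpha4beta7 and the chemokine receptor CCR9. S1PR1 lets T cells leave tissue towards blood or lymph, and CCR7 guides them into lymph nodes.

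Levels are given in log2, with the 75th percentile of each array's signal set to 0, and differences are small intestine minus blood with their standard error (SE). A probe counts as well above background by the scanner software's own flag. Testing required a gene's probe to be so marked on 3 or more of the 4 small intestine or 4 or more of the 5 blood arrays, and a gene was called at an adjusted p under 0.05 in limma, a linear model fitted over all 7753 genes tested. On the 9 arrays 22.6% to 35.5% of the probes were well above background, and the 75th percentile itself was a signal of 878.4 to 2404.

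Genes of the labelled cell type were bright on every array, but not equally so. The identity list for CD8 T cells, with 19 tested genes (the T cell receptor complex, CD8 and their signalling proteins), averaged 4.49 to 4.92 on the blood arrays. On small intestine 1, 2, 3 and 4 they averaged 4.09, 3.42, 5.19 and 3.01. Small intestine 3 thus lay above every blood array and the other three below every blood array. Transcripts of intestinal cells ran the other way. The 8 Paneth cell genes averaged 4.06, 5.21, 0.89 and 6.00 on small intestine 1 to 4, against -2.94 to -1.70 on the blood arrays, and the 11 tested epithelial genes averaged 1.73, 4.25, -0.19 and 4.99. Small intestine 3 was again the exception, here with the lowest values. On small intestine 5 Paneth genes averaged -3.25, epithelial genes -1.63 and identity genes 4.90, the first and second below every blood array and the third within the range of blood. In bulk samples such as these, fewer cells of a type and less RNA per cell cannot be told apart, and the part of intestinal transcripts in the results below was not tested.

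**Figure D1:**
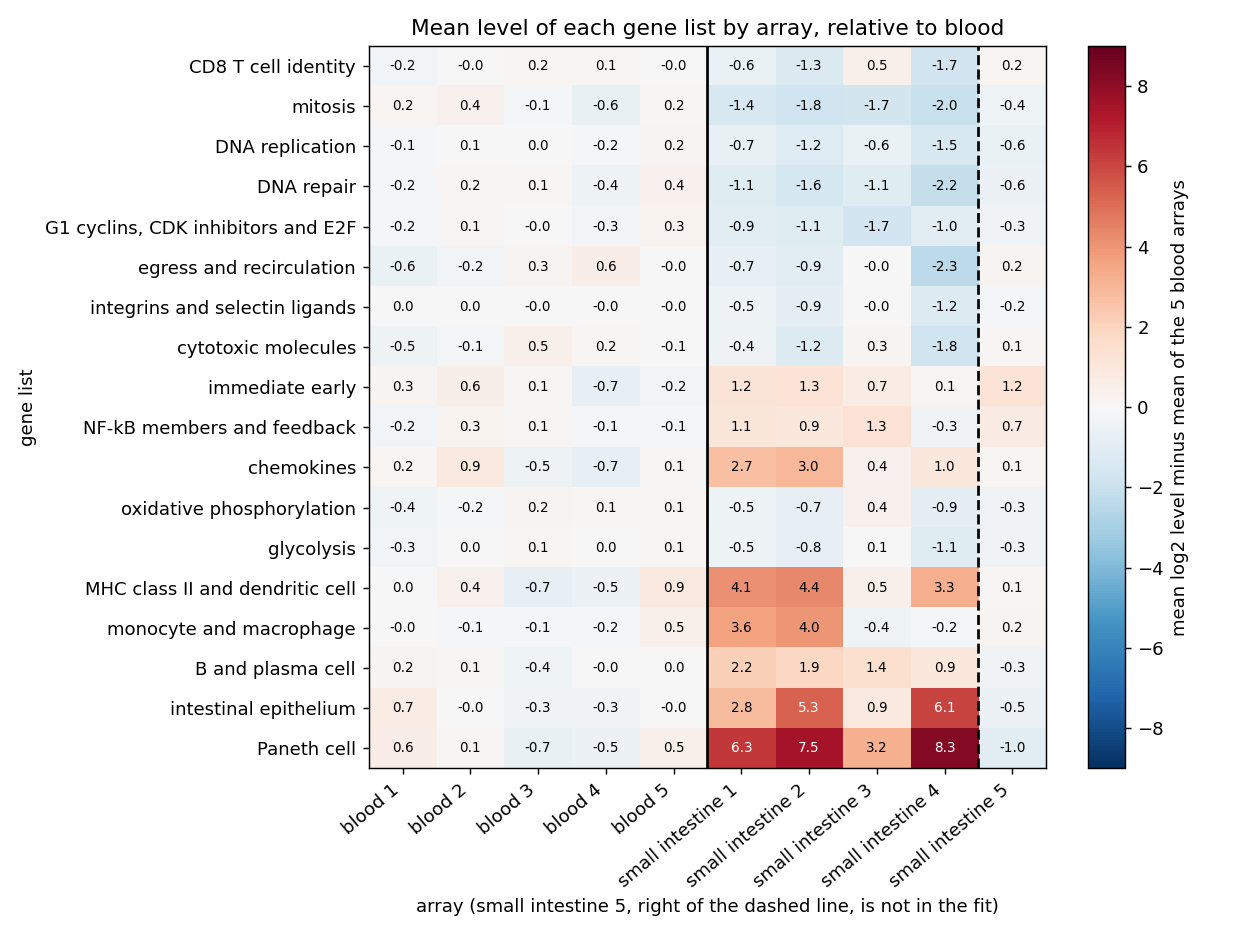
Mean log2 level of the tested genes of each gene list (rows) on each array (columns), minus the mean of the 5 blood arrays; colour and printed number show the difference, and small intestine 5, right of the dashed line, is not in the fit. Mitosis is below blood on small intestine 1 to 4 alike, whereas CD8 T cell identity is below blood on small intestine 1, 2 and 4 and above it on small intestine 3, and macrophage genes are high on small intestine 1 and 2.

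Of the 7753 genes, 1366 were called (17.6%), 219 higher (2.82%) and 1147 lower (14.8%) in small intestine (limma). Of the 219 higher genes, 37 were alpha-defensins or members of any list of other cells. Among these, 26 were alpha-defensins or members of the Paneth cell or epithelium lists. The calls of these 26 carry no weight, since such transcripts chose the arrays, and they are in every count of higher genes below. With the slide as a block, which here is also the replicate number, 598 were called, 130 higher and 468 lower, and 568 of them were among the 1366. The direction was the same on all 4 slides that hold both sites for 1116 of the 1147 lower and 205 of the 219 higher genes. These genes were called on the same arrays, so such agreement follows from the choice and is no separate support. The values of the 4 and 5 arrays did not overlap for 1461 genes (18.8%), with small intestine above for 3.15% and below for 15.7% of the genes tested. The count depended on which array was left out. It rose to 3237 on leaving out small intestine 3 and dropped to 505 on leaving out small intestine 2, and without blood 2, 3, 4 or 5 it was 678, 661, 817 or 669. With small intestine 5 included 368 were called, all of them among the 1366. On small intestine 5, 46.1% of the 1147 lower genes lay below every blood array and 20.1% of the 219 higher genes above every blood array. For small intestine 3 these shares were 85.3% and 62.1%, and for the rest of the small intestine arrays in the fit at least 96.1% and 94.1%. The genes were called on the arrays in the fit, which raises the shares of those arrays, whereas small intestine 5 had no part in the call. The shares of small intestine 5 are therefore not on an equal footing with the others, and no conclusion is drawn from the gap.

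The median difference of all genes tested was -0.43, and the genes that were not called formed a pair of bands. The upper band held gene families that T cells are not known to use. Of the olfactory, vomeronasal and taste receptor and keratin-associated genes, 67 were tested, and their median difference was 0.65 (quartiles 0.57 and 0.75), with 1 called higher and 0 lower. Their mean level was 1.20, 1.19, 1.30 and 1.96 on small intestine 1 to 4, 0.84 on small intestine 5, and 1.19, 0.94, 0.20, 0.59 and 0.96 on blood 1 to 5. Over the 10 liver and lung arrays, which are not in the fit, the level of 1310 of the genes tested (16.9%) followed that mean with a correlation above 0.8, and their median difference was 0.69. The other 6443 genes had a median of -0.59. The part of this shared course in the results was not tested, and a list median near 0.65 is therefore not read as a change below.

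The split into higher and lower also moved with the scaling. Of the called genes 16% were higher here, 9% with the median of all probes as the scale (median difference -0.76), 13.3% with only those probes that passed background on 9 of 9 arrays as the scale (-0.39) and 51.5% with the CD8 identity genes (0.37). The share was 48.4% when scaled on the 75th percentile of the 6443 other genes, called the non-following genes below (0.13), and 3.45% when scaled on the receptor families (-1.07). These last 2 scalings were chosen after seeing the data. List medians are therefore set below beside the median of all genes tested, -0.43. Differences, folds and p-values of single genes are against 0, with that median not taken out. Counts of called list members stand beside 2.82% higher and 14.8% lower over all genes tested. No named gene that was called changed direction in any of the 28 other settings run. Scaling on the CD8 identity genes ended the call of 64 of the 103 named called genes, the deposited table or quantile normalization of 16 and scaling on the median of all probes of 15. Scaling on the non-following genes ended the call of 24 and on the receptor families of 14. All these losses are not repeated at every gene. Taking the mean of all probes of a gene, in place of its brightest probe, ended 9 of the 103 calls.

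**Figure D2:**
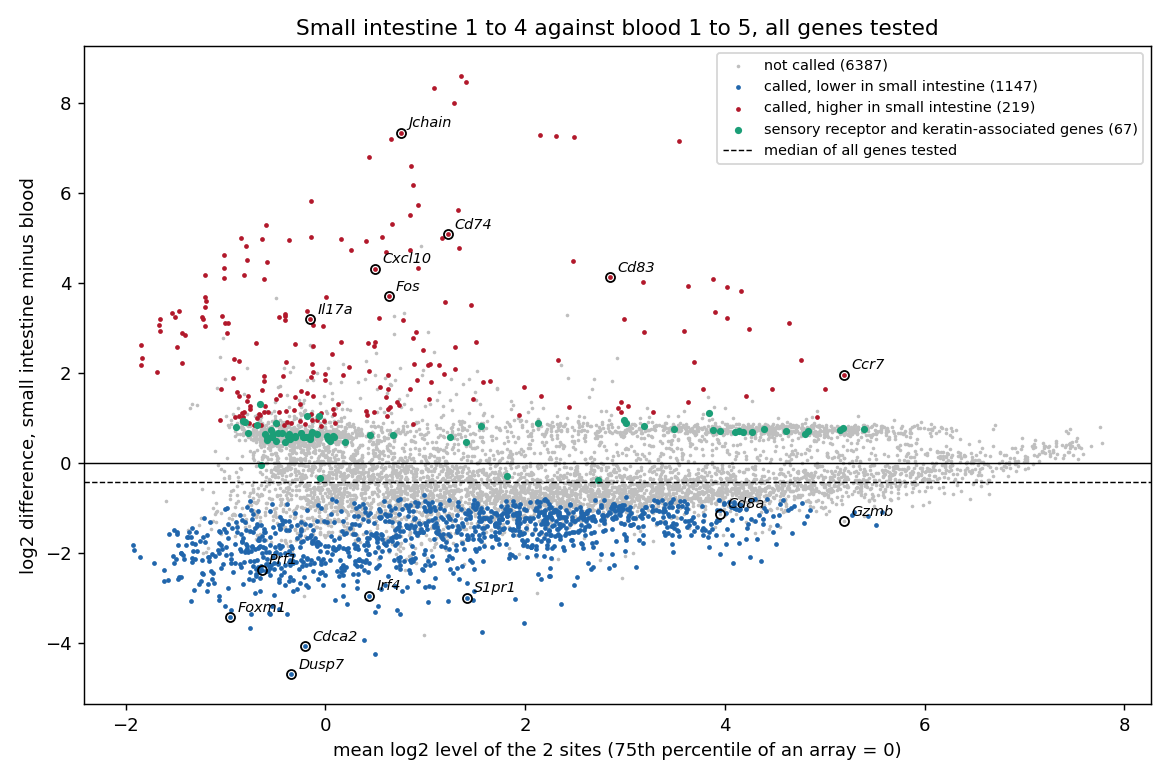
Each point is 1 of the 7753 genes tested, with its mean log2 level over both sites (horizontal) and its log2 difference, small intestine minus blood (vertical); red and blue points are the 219 higher and 1147 lower genes, and green points the 67 receptor and keratin-associated genes. The grey points form a pair of bands, and the green points lie in the upper one, near 0.65, above the dashed median of -0.43.

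Most genes of mitosis were lower in small intestine. Of 58 listed genes 46 were tested, 36 were called lower and 0 higher, and the median difference was -1.63 against -0.43 for all genes. The mean of the 46 genes was 1.03, 0.71, 0.82 and 0.47 on small intestine 1 to 4 and 1.84 to 2.86 on the blood arrays, so the groups did not overlap, and small intestine 3 lay with the others although its CD8 identity genes were the highest. Small intestine 5, at 2.09, lay within the range of blood. None of the 46 genes followed the receptor families with a correlation above 0.8. Over liver and lung the mitosis genes named below ran against those families. Their correlations were -0.85 for Foxm1, -0.85 for Cdca2, -0.69 for Ccnb1, -0.56 for Haspin, -0.55 for Stil and -0.78 for Mki67. The part of that shared course in the lower mitosis genes was not tested. Under other settings 0 were higher throughout, and the number lower was 20 with small intestine 5 included, 19 when scaled on the non-following genes, 28 with the block and 3 when scaled on CD8 identity.

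Foxm1, the transcription factor that switches on the G2 and M phase programme, had levels of 0.56, 1.82, 0.97, -0.10 and 0.57 on blood 1 to 5 and of -2.46, -2.80, -2.91 and -2.51 on small intestine 1 to 4. It was not well above background on any of these 4 arrays, so the difference is a bound, at least 2.61-fold lower (limma adjusted p = 0.00042). On small intestine 5 it was -0.16, below every blood array. Such bounds set the mean of the bright group against, per array of the dim group, the higher of 2 signals: that of the gene itself and the dimmest one marked as well above background on that array. Cdca2, which brings protein phosphatase 1 to chromosomes at mitotic exit, was likewise at least 5.48-fold lower (adjusted p = 0.00048). Its blood levels were 2.14, 2.29, 1.20, 1.05 and 2.49, and its small intestine levels -1.0, -2.58, -2.89 and -2.49. Haspin, the kinase that marks histone H3 at centromeres, was at least 2.31-fold lower (adjusted p = 0.00016). Foxm1, Cdca2 and Haspin kept their calls in every setting that tested them, small intestine 5 included.

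Ccnb1 (cyclin B1, which drives entry into mitosis with CDK1) was measured on both sides. Its levels were 3.66, 3.56, 3.32, 2.67 and 4.04 in blood and 1.1, -0.22, 1.00 and 1.58 in small intestine, with 2.21 on small intestine 5. The groups did not overlap, and the difference was -2.59 ± 0.40 (SE), or 6.00-fold lower (adjusted p = 0.0030, and 0.101 when scaled on CD8 identity). Stil, needed to build centrioles, was at least 1.35-fold lower (adjusted p = 0.0025, and 0.105 when scaled on CD8 identity). Mki67, the common proliferation marker, was among the 10 members not called, at -0.76 ± 0.87 (adjusted p = 0.477). Its blood levels ran from 1.95 to 5.79 and its small intestine levels from 1.84 to 3.98.

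The CCAAT box, bound by the factor NF-Y, is a known feature of promoters of G2 and M phase genes. The promoters of 3 called mitotic genes are shown because they carry this motif in a pair of copies or not at all. Each is the 150 bases before the RefSeq transcription start in GRCm38.p6, in the direction of the gene, with CCAAT or its reverse complement ATTGG in capitals. Ccnb1 lies at chr13:100786487-100786636 (minus strand), Stil at chr4:114999968-115000117 (plus strand) and Haspin at chr11:73138295-73138444 (minus strand).
Ccnb1: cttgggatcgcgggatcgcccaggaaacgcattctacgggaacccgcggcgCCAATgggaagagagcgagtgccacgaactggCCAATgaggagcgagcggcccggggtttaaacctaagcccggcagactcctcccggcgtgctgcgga
Stil: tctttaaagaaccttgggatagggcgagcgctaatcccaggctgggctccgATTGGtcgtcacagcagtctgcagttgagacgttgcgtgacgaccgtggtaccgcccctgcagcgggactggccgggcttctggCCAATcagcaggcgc
Haspin: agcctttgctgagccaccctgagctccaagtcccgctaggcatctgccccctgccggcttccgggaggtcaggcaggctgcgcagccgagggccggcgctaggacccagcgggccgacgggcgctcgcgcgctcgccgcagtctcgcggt
In the 250 bases before the start, on both strands, CCAAT was found in 75.5% of the 49 mitosis promoters matched by symbol, against 37.5% of all 27025 promoters. It was in 80.0% of the 30 promoters of genes lower in small intestine and in 66.7% of the 9 of tested genes not called, both above the share of all promoters. The letters TTTGAA, the core of the cell cycle homology region, were in 34.7% of the 49 and 18.3% of all promoters.

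Lists of repair and of the earlier cell cycle phases also had called genes, nearly all of them lower. DNA repair genes had 9 of 12 tested members lower and 0 higher (20 listed, median -1.48), DNA replication 16 of 35 lower and 0 higher (44 listed, median -1.0), and the G1 list 7 of 14 lower and 1 higher (20 listed, median -1.30). For replication the count was 2 with the block, 8 with small intestine 5, 3 scaled on the non-following genes and 0 scaled on CD8 identity, and, with 1 array left out, 6 (small intestine 2), 27 (small intestine 3) and 8 or 9 (blood 2, 3, 4 or 5). For repair the count was 6 with the block, 5 with small intestine 5, 4 and 0 under these scalings, 5 without small intestine 2, 11 without small intestine 3 and 4 to 7 without blood 2, 3, 4 or 5. For the G1 list 4, 3, 3 and 0 were lower with the block, with small intestine 5 and under these scalings.

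Ccne1 (cyclin E1, which starts S phase) stood at 3.10, 3.69, 3.40, 3.21 and 3.69 in blood and at 1.21, 0.90, -1.72 and 1.15 in small intestine. It fell by 3.04 ± 0.54 (adjusted p = 0.0059, and 0.0523 when scaled on the non-following genes). Ccnd3, the cyclin D that T and B cells rely on, fell from 4.06 to 4.53 in blood to 1.58 to 2.41 in small intestine, with 3.82 on small intestine 5. This difference, -2.31 ± 0.26 (adjusted p = 0.00050), had an adjusted p of 0.055 when scaled on CD8 identity. E2f2, an activating E2F factor, was 5.00-fold lower (adjusted p = 0.0037). Fanci, of the Fanconi crosslink repair pathway, had 2.08 to 3.04 in blood and 1.12, -0.69, -0.27 and -2.25 in small intestine, a difference of -3.10 ± 0.55 (adjusted p = 0.0060). Rrm2, the inducible subunit of ribonucleotide reductase, was 2.91-fold lower (adjusted p = 0.0096, 0.056 with the block, 0.0727 when scaled on the non-following genes and 0.298 when scaled on CD8 identity). The 1 higher gene was Cdkn1a (p21, an inhibitor of cyclin-dependent kinases). It had -1.55 to -0.02 in blood and 3.34, 3.69, -0.51 and 0.54 in small intestine, and its call, 2.68 ± 0.78 (adjusted p = 0.038), was lost with small intestine 5 (0.082), with the block (0.076) and without small intestine 1 (0.089), small intestine 2 (0.111) or any 1 blood array (0.0567 to 0.0853). Cdkn1a was high on small intestine 1 and 2, the arrays with high macrophage genes (4.84 and 5.17, against 1.00 to 1.68 in blood). The part of such cells in the level of Cdkn1a was not tested.

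**Figure D3:**
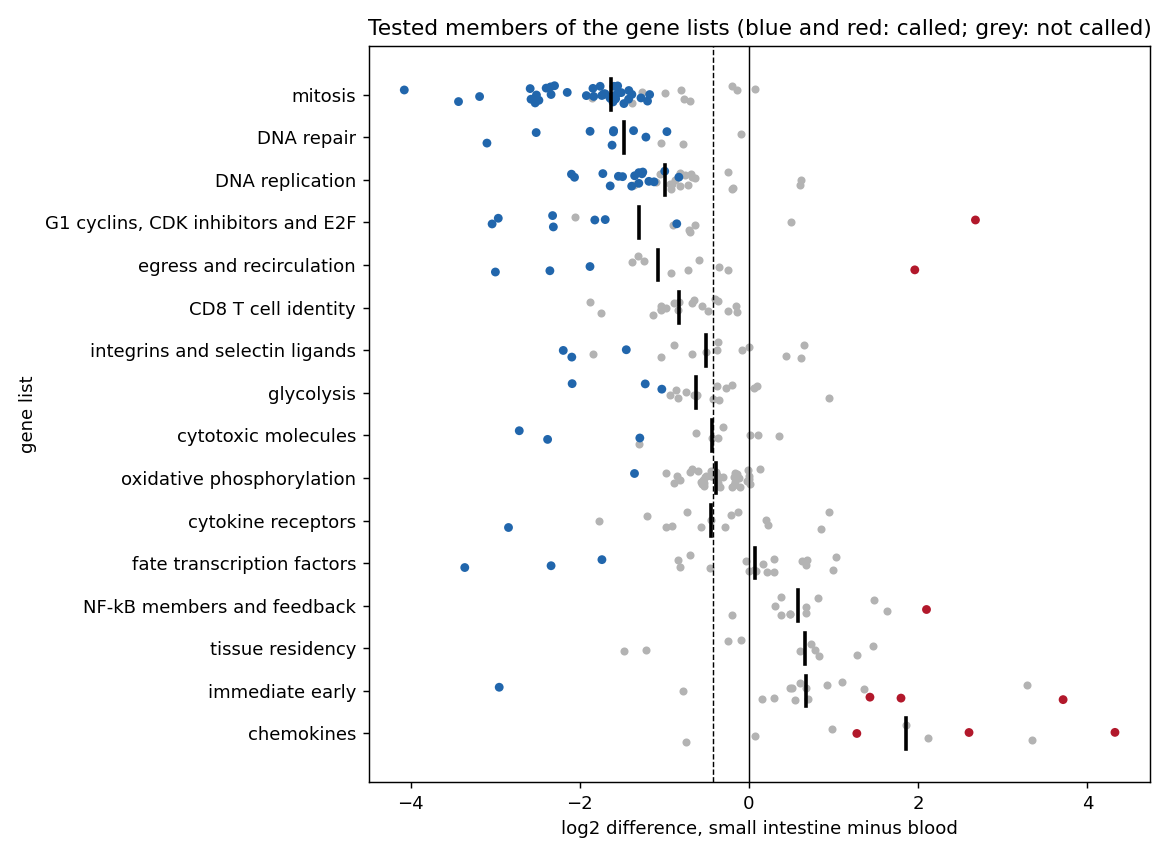
Each point is a tested member of a gene list (rows) at its log2 difference, small intestine minus blood; blue and red points were called lower and higher, grey points were not called, thick bars are list medians and the dashed line is the median of all genes, -0.43. Mitosis has 36 of 46 members called lower, and the tissue residency and CD8 identity rows have none called.

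Genes of lymphocyte traffic gave 3 lower and 1 higher of 12 tested in the egress and recirculation list (15 listed, median -1.08). Over all genes tested 14.8% were lower and 2.82% higher. S1pr1, the receptor for exit from tissue, had levels of 2.36, 2.75, 3.25, 3.88 and 2.35 in blood and 0.58, -0.56, 2.13 and -2.47 in small intestine. The groups did not overlap, but small intestine 3 and small intestine 5 (1.50) lay close to blood. It fell by 3.00 ± 0.75 (adjusted p = 0.022), and the call was lost with small intestine 5 (0.055), when scaled on CD8 identity (0.053) and without small intestine 2 (0.0708), blood 3 (0.0541) or blood 4 (0.0511). Arhgef18, a guanine nucleotide exchange factor, fell by 2.35 ± 0.31 (adjusted p = 0.0012). Klf2, the factor that drives S1pr1 in resting T cells, was not called at -0.59 ± 0.38 (adjusted p = 0.224).

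Ccr7 went against the rest of its list. Its levels were 3.02, 4.06, 4.62, 4.97 and 4.39 in blood and 5.94, 6.13, 7.42 and 5.19 in small intestine, each above every blood array, with 5.57 on small intestine 5. It was 3.89-fold higher (adjusted p = 0.022, 0.045 with the block and 0.045 with small intestine 5). The adjusted p was 0.0613 without small intestine 2, 0.0514 without blood 2 and 0.134 when scaled on the receptor families. On small intestine 3, which had the highest value, MHC class II and dendritic cell genes averaged 0.79 (-0.43 to 1.19 in blood), macrophage genes 0.84 (1.00 to 1.68 in blood) and B and plasma cell genes 1.495 (-0.31 to 0.28 in blood). The part of such cells in the level of Ccr7 was not tested.

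Of the integrins and selectin ligands 3 of 15 tested genes (18 listed) were lower and 0 higher, beside 14.8% lower over all genes tested. The median was -0.51, close to that of all genes. Itga4, the alpha4 chain of the gut homing integrin, had 5.16 to 5.39 in blood and 3.69, 2.84, 4.38 and 1.90 in small intestine. It was 4.27-fold lower (adjusted p = 0.010, 0.056 with small intestine 5, which stood at 4.92). With the mean of the gene's probes the adjusted p was 0.0693, so the Itga4 call rests on its brightest probe. Its partner Itgb7 had 6.73 to 6.94 in blood and 6.52, 5.84, 7.62 and 5.85 in small intestine and was not called (-0.37 ± 0.36, adjusted p = 0.410). Fut7, the enzyme that completes selectin ligands, was 4.58-fold lower (adjusted p = 0.0028), with 2.00 to 3.10 in blood, -0.14 to 0.83 in small intestine and 1.09 on small intestine 5, below every blood array. Of 5 chemokine receptors tested (13 listed, median -0.74), Ccr10 and Cxcr3 were lower. Ccr10, a receptor for skin and mucosal chemokines, had 0.12 to 2.02 in blood and -0.39, -2.76, -2.90 and -2.56 in small intestine (-2.90 ± 0.56, adjusted p = 0.0083). Ccr10 was well above background on 1 small intestine array, so the size of its fall is uncertain. Cxcr3, the receptor for CXCL9 and CXCL10, fell by 2.19 ± 0.60 (adjusted p = 0.031), but small intestine 3 (5.30) lay within the range of blood (5.06 to 5.90), and the call was lost with small intestine 5 (0.105), when scaled on the non-following genes (0.0561) and without any array other than small intestine 3 or blood 1 (0.0517 to 0.0925). Ccr9, the receptor for the gut chemokine CCL25, had -2.52 to 1.60 in blood and -0.10 to 2.31 in small intestine and was not called (1.44 ± 0.88, adjusted p = 0.205).

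Killing genes gave 3 lower and 0 higher of 11 tested (19 listed, median -0.44, that of all genes), beside 14.8% lower over all genes tested. Prf1 (perforin, which forms the pore) was at least 2.26-fold lower (adjusted p = 0.0096). Its blood levels were 0.24, 0.20, 1.64, 1.08 and -0.39, and its small intestine levels -1.47, -2.50, -0.83 and -2.51, none of them well above background. Small intestine 5, at -0.19, lay inside the range of blood. Serpinb9, the granzyme B inhibitor, had the largest difference of the list and an adjusted p of 0.047. It was 0.164 with small intestine 5, 0.135 without small intestine 2, 0.116 without small intestine 4, 0.055 with the block, 0.0501 with the mean of the gene's probes and 0.0685 to 0.108 without blood 2, 3, 4 or 5. Gzmb (granzyme B) had 4.92 to 6.38 in blood and 5.04, 3.70, 6.14 and 3.29 in small intestine and was not called (-1.30 ± 0.55, adjusted p = 0.108). Gzma (granzyme A) differed by 0.01 ± 0.30 (adjusted p = 0.982). In Gzmb small intestine 3 lay within the range of blood and small intestine 2 and 4 below it, whereas in Prf1 all 4 lay below every blood array.

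Among fate transcription factors 3 of 20 tested (27 listed, median 0.08) were lower and 0 higher. This count lower is near the 14.8% of all genes tested, so it is not read as a result about the list. Nfatc2 (NFAT1, the calcium-driven factor downstream of the T cell receptor) had 1.02 to 1.69 in blood and -0.67, -2.51, -2.69 and -2.38 in small intestine, at least 3.67-fold lower (adjusted p = 0.00070). On small intestine 5 it was 1.82, above every blood array, and the adjusted p with that array was 0.059. Ikzf1 (Ikaros) was 5.06-fold lower (adjusted p = 0.0083, 0.056 with small intestine 5, 0.0599 with the mean of the gene's probes). Tox, a factor of chronic stimulation, fell by 1.74 ± 0.39 (adjusted p = 0.015), with 0.147 when small intestine 5 entered and 0.0535 without small intestine 2. Irf4, induced in proportion to receptor strength, had 2.06, 2.30, 2.03, -0.20 and 3.38 in blood and -0.10, -1.48, -0.89 and -1.68 in small intestine. Small intestine 1 lay just above blood 4, so the groups overlapped. The fall was 2.95 ± 0.61 (adjusted p = 0.011), and with small intestine 5, at 2.17, the adjusted p was 0.086. Irf4 was well above background on 1 of the small intestine arrays in the fit, so the size of its fall is uncertain. Tbx21 (T-bet) was not called (0.17 ± 0.32, adjusted p = 0.674).

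Receptor and metabolism lists are given next, against 17.6% called and 14.8% called lower over all genes. Il18r1, the IL-18 receptor chain, was the 1 called gene of 15 cytokine receptors tested (24 listed, median -0.44). It had 2.38 to 3.46 in blood and 0.73, -0.58, 1.36 and -1.26 in small intestine, 7.22-fold lower (adjusted p = 0.0059), and 0.073 with small intestine 5 (3.20). Of 11 inhibitory receptors and ligands (14 listed, median -0.35) Btla was lower and Cd274 higher. Btla fell by 2.46 ± 0.64 (adjusted p = 0.025), which was 0.228 with small intestine 5 and 0.0861, 0.0559, 0.0584 and 0.0566 without small intestine 2, small intestine 4, blood 3 and blood 5. Cd274 (PD-L1) rose by 0.96 ± 0.27 (adjusted p = 0.031), little more than the receptor families, and scaled on those its adjusted p was 0.351. The call was also lost with the block (0.107), with small intestine 5 (0.0946) and without small intestine 1, 2 or 4 or blood 2, 3, 4 or 5 (0.0503 to 0.0909). Pdcd1 (PD-1) was not called (-0.10 ± 0.30, adjusted p = 0.783). Glycolysis had 3 of 18 tested lower, near the share of all genes (20 listed, median -0.63), led by the glucose transporter gene Slc2a3 (-2.09 ± 0.53, adjusted p = 0.023, 0.124 with small intestine 5, 0.0666 without small intestine 2, 0.0512 without small intestine 4, 0.0512 without blood 2 and 0.0564 without blood 3). Oxidative phosphorylation had 1 of 39 lower (41 listed, median -0.39).

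Among the genes that rose, Cd83 stood well apart from blood on all 4 arrays. This surface protein of activated lymphocytes and dendritic cells had 0.49, 1.84, -0.06, 0.11 and 1.56 in blood and 5.23, 6.03, 4.80 and 3.61 in small intestine, each above every blood array. It was 17.5-fold higher (4.13 ± 0.53, adjusted p = 0.0011), and the call held in every setting that tested it. Small intestine 5 stood at 5.04, with means of 0.44 for MHC class II and dendritic cell genes and 1.41 for macrophage genes, both within the range of blood. The part of such cells in the level of Cd83 was not tested. It was the 1 called gene of 8 costimulatory genes tested (12 listed, median 0.61, below that of the receptor families).

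Cxcl10, an interferon-induced chemokine that binds CXCR3, was also called in every setting that tested it. It had -1.40, 0.06, -1.90, -3.38 and -1.69 in blood and 3.74, 4.02, 1.36 and 1.52 in small intestine, with 1.56 on small intestine 5. It was 20.1-fold higher (4.33 ± 0.72, adjusted p = 0.0043, 0.022 with small intestine 5), and all 4 small intestine arrays lay above every blood array. Cxcl10 was well above background on 1 blood array, so the size of this fold is uncertain. The settings limited to genes above background on 9 of 9 arrays did not test it. Of the 9 chemokines tested (22 listed) 3 were higher and 0 lower, with a median of 1.86. Cxcl1, a neutrophil attractant, had -1.35 to -0.18 in blood and 3.17, 3.45, -0.16 and 0.67 in small intestine (2.60 ± 0.67, adjusted p = 0.026). The call was lost with small intestine 5, at -1.18 (0.124), scaled on the receptor families (0.0717) and without small intestine 1 (0.0617), small intestine 2 (0.0803) or blood 2, 3, 4 or 5 (0.0528 to 0.0627). Cxcl2, its close relative, rose by 1.27 ± 0.30 (adjusted p = 0.018), and was at 0.129 with small intestine 5, 0.063 with the block, 0.107 scaled on the receptor families and 0.0651 without small intestine 2. Cxcl2 was well above background on 0 blood arrays, so the size of its rise is uncertain. It followed those families over liver and lung with a correlation of 0.84. The mean of the chemokine list, which holds these genes, was 3.04 and 3.37 on small intestine 1 and 2, 0.75 and 1.34 on small intestine 3 and 4, and -0.38 to 1.27 in blood. Macrophage genes averaged 4.84 and 5.17 on small intestine 1 and 2 and 0.84 and 1.04 on small intestine 3 and 4, and their part in the chemokine levels was not tested.

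The promoters of these 3 chemokine genes are shown because each holds the NF-kB motif close to the start. The capitals mark matches to the NF-kB motif, on either strand, in the 150 bases before the RefSeq start in GRCm38.p6. Cxcl10 lies at chr5:92348890-92349039 (minus strand), Cxcl1 at chr5:90891095-90891244 and Cxcl2 at chr5:90903749-90903898 (both plus strand). Cxcl1 and Cxcl2 have 3 matches each, a pair of which overlap on opposite strands in the 11-base run.
Cxcl10: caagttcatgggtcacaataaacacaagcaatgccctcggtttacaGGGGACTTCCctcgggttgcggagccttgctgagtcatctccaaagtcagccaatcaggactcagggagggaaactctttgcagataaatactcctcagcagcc
Cxcl1: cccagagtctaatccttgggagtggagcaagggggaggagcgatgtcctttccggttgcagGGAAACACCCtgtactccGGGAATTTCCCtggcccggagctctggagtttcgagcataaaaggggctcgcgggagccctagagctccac
Cxcl2: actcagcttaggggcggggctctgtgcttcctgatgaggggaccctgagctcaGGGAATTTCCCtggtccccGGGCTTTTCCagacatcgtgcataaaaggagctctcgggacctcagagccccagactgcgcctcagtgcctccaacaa
In the 250 bases before the start, on both strands, the motif was found in 37.5% of the 16 chemokine promoters matched and in 5.31% of all 27025. Among NF-kB members and their feedback genes, 1 of 12 tested (15 listed) was higher and 0 lower, with a median of 0.58, below that of the receptor families. The gene was Nfkbie (the inhibitor IkB epsilon), with -0.56 to 0.68 in blood and 3.32, 2.95, 2.58 and 0.55 in small intestine (2.09 ± 0.52, adjusted p = 0.022). The call was lost scaled on the receptor families (0.125) and without small intestine 1 (0.0542) or small intestine 2 (0.0729), and small intestine 5 stood at 2.53.

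Of 17 immediate early genes tested, which are transcribed within minutes of stimulation (26 listed, median 0.68), 3 were higher and Irf4, above, lower. Fos had 1.27, 1.48, -2.98, -3.71 and -2.16 in blood and 3.05, 3.94, 1.85 and 1.12 in small intestine. Blood 1 and 2 overlapped with small intestine and blood 3, 4 and 5 lay far below. The difference was 3.71 ± 1.08 (adjusted p = 0.037, 0.018 with the block, 0.063 with small intestine 5). Fos was well above background on 2 blood arrays, so the size of this difference is uncertain. Jun rose by 1.43 ± 0.36 (adjusted p = 0.023, 0.061 with the block) and Dusp1, a phosphatase that ends MAP kinase signals, by 1.80 ± 0.50 (adjusted p = 0.031). Fos, Jun and Dusp1 lost their calls when scaled on the receptor families (0.0568, 0.0712 and 0.122), on leaving out small intestine 2 (0.112, 0.0787 and 0.101) or on leaving out blood 3 (0.0879, 0.057 and 0.0747), blood 4 (0.0758, 0.0528 and 0.0684) or blood 5 (0.0848, 0.0596 and 0.0716). Fos and Dusp1 also lost them without small intestine 1 (0.0769 and 0.0756). Nr4a1 (Nur77), a readout of T cell receptor signals, was not called (1.09 ± 0.41, adjusted p = 0.082).

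Cytokine and signalling genes added a few more. Il17a, the cytokine IL-17A, had -0.56, -0.30, -0.62, -3.85 and -3.42 in blood and 2.35, 0.16, 1.48 and 1.79 in small intestine, with 2.88 on small intestine 5. It was 9.14-fold higher (adjusted p = 0.022, 0.036 with small intestine 5), while the adjusted p was 0.052 with the block, 0.053 scaled on CD8 identity, 0.0537 without small intestine 1 and 0.0518 without blood 5. Il17a was well above background on 2 blood arrays, so the size of this fold is uncertain. Tnfsf11 (RANKL) rose by 2.21 ± 0.52 (adjusted p = 0.018, 0.0625 without small intestine 2 and 0.0873 scaled on the receptor families). These were 2 of the 7 cytokines tested (23 listed, median 0.39). Ifng (interferon gamma) was not called (0.42 ± 0.65, adjusted p = 0.605), and Tnf was not tested, being well above background on 2 small intestine and 0 blood arrays. Dhrs3, a retinaldehyde reductase induced by retinoic acid, had -1.01 to 0.23 in blood, 2.65, 3.19, 2.36 and 0.71 in small intestine and 2.11 on small intestine 5. It was 5.67-fold higher (adjusted p = 0.0081) and kept its call in every setting that tested it. With Skil, a TGF-beta feedback gene (1.07 ± 0.29, adjusted p = 0.029, 0.329 scaled on the receptor families, 0.0614 with the block, 0.07 with the mean of the gene's probes, and 0.0614, 0.0958, 0.0513, 0.057, 0.0699 and 0.0603 without small intestine 1 and 2 and blood 1 to 4), it was 1 of 2 higher among 6 tested in the TGF-beta and retinoic acid list (17 listed, median 0.96).

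**Figure D4:**
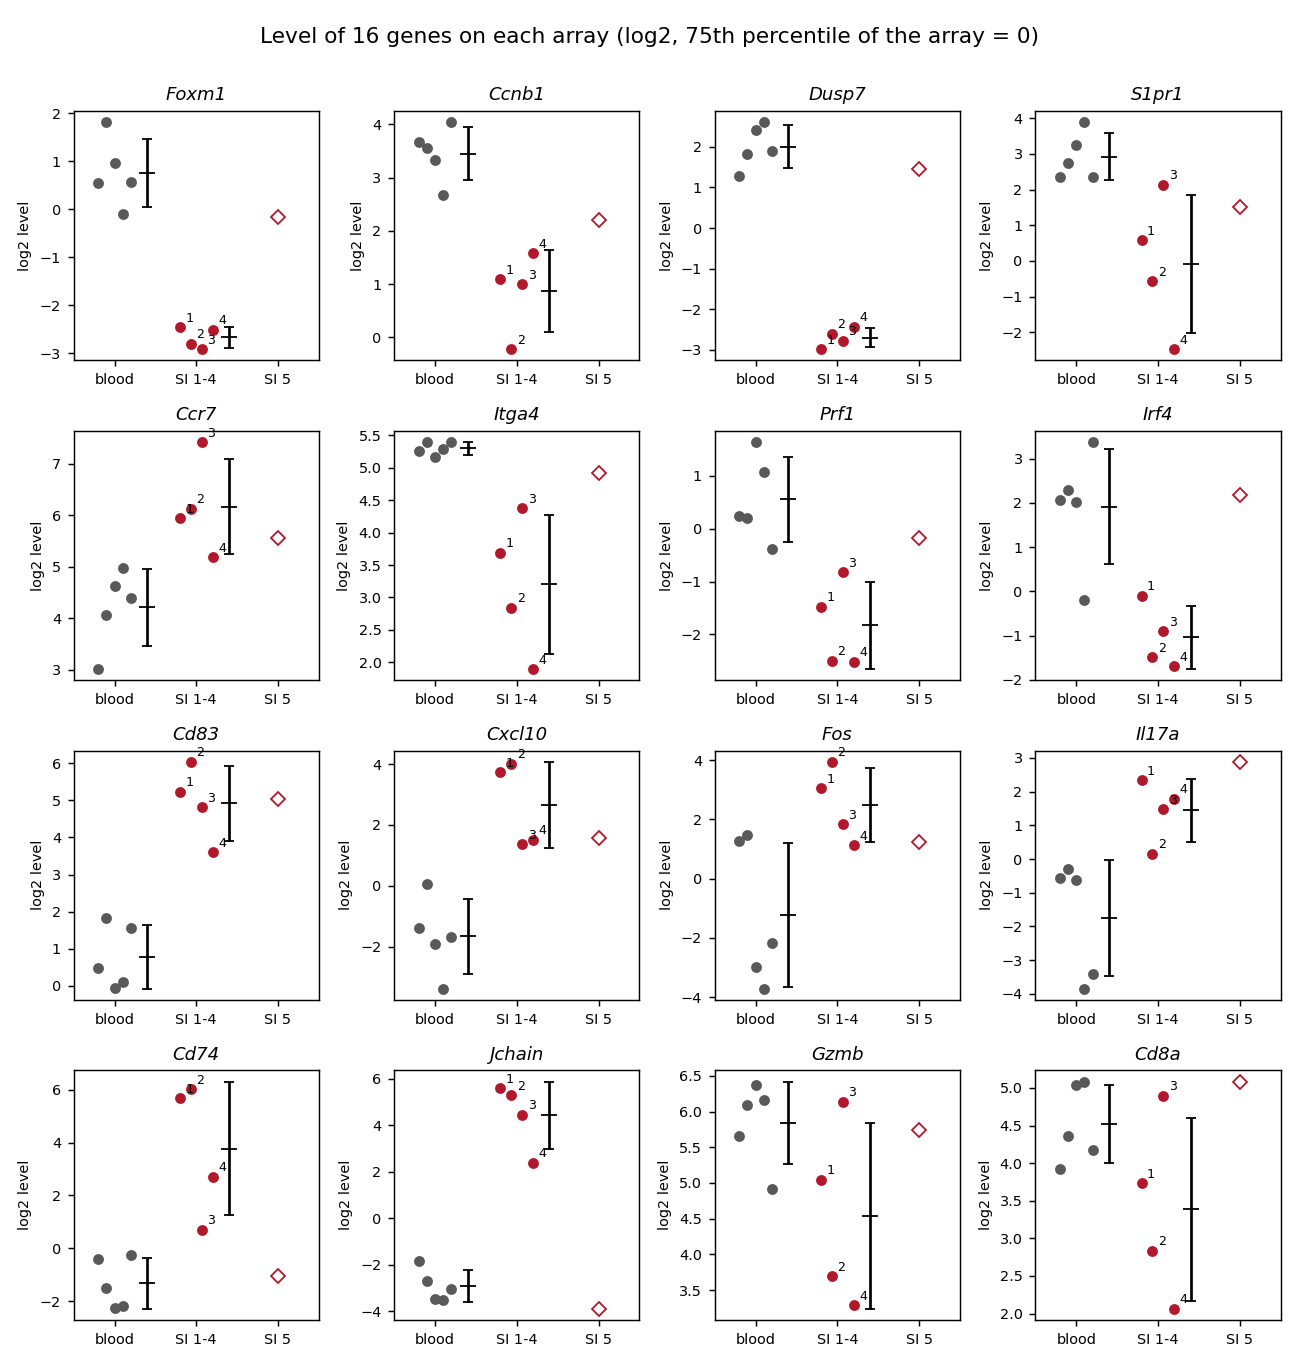
Log2 level of 16 genes on each array, with grey points for blood 1 to 5, numbered red points for small intestine 1 to 4 (SI), an open diamond for small intestine 5, and bars for the mean and SD of each group; each panel has its own scale. Foxm1 and Dusp7 lie at the floor on small intestine 1 to 4 and near blood on small intestine 5, Cd83 is high on all 5, and Cd74 and Jchain are low on small intestine 5.

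Several of the largest falls were in genes of no list. Dusp7, a phosphatase of ERK, had 1.28, 1.83, 2.42, 2.61 and 1.90 in blood and -2.98, -2.60, -2.78 and -2.42 in small intestine, where no array was well above background. It was at least 6.19-fold lower (adjusted p = 4.9e-05), and small intestine 5, at 1.45, stood inside the range of blood, which took the adjusted p to 0.027. Sh2d3c, an adaptor of integrin and chemokine receptor signalling, was at least 9.47-fold lower and Fam53b at least 7.87-fold lower (both adjusted p = 0.00016). Fam78a had 3.04 to 4.16 in blood and 0.09, -1.45, 0.87 and -0.75 in small intestine, 13.5-fold lower (adjusted p = 0.00070). Trim21, a cytosolic antibody receptor, was at least 3.30-fold lower (adjusted p = 0.00025). Dusp7, Sh2d3c, Fam53b and Fam78a kept their calls in every setting that tested them. The settings limited to genes above background on 9 of 9 arrays did not test Dusp7, Sh2d3c or Fam53b.

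Lists of other immune and tissue cells differed in their calls. The macrophage (4 tested), endothelium (4) and neutrophil (2) lists had 0 called, and the gamma delta T and innate lymphoid list had 1 of 2 lower and 0 higher. For macrophages this count leaves out most of the list. Of 19 macrophage genes with a probe, 16, 16, 3 and 4 were well above background on small intestine 1 to 4, against 2 to 6 on the blood arrays. Most of them therefore did not pass the filter. Of 6 tested B and plasma cell genes (14 listed, median 0.68, near that of the receptor families) 2 were higher, Jchain and Sdc1 (syndecan 1, a plasma cell and epithelial surface protein, 1.97, adjusted p = 0.0049), and Tnfrsf13c (the BAFF receptor), well above background on 4 blood and 0 small intestine arrays, was lower (adjusted p = 0.016). Sdc1 and Tnfrsf13c were picked after their values were seen. Jchain, the joining chain of secreted IgA and IgM made by plasma cells, had -3.51 to -1.86 in blood and 5.60, 5.29, 4.45 and 2.39 in small intestine, at least 44.7-fold higher (adjusted p = 0.00016), and -3.89 on small intestine 5. That array was left out for lacking intestinal transcripts, and Jchain was likewise low there, so the p-value of Jchain carries little weight. Sdc1, also an epithelial gene, shares this limit. Of the B cell genes, Ms4a1, Cd79a and Pax5 were well above background on none of the 4 small intestine arrays. Of 8 tested MHC class II and dendritic cell genes (17 listed, median 3.17, 5.21 without the 2 that follow the receptor families) 6 were higher and 0 lower. Cd74, the invariant chain, had -2.27 to -0.25 in blood and 5.67, 6.01, 0.70 and 2.70 in small intestine, 34.1-fold higher (adjusted p = 0.0081), and with small intestine 5, at -1.06, the adjusted p was 0.061. The 4 tested macrophage genes (21 listed, median 1.65) had means of 4.84, 5.17, 0.84 and 1.04 on small intestine 1 to 4. Both smooth muscle genes tested of the stroma list were higher (Acta2 3.61 ± 0.94, adjusted p = 0.026, lost without small intestine 1, 2 or 4 or blood 3, 4 or 5, at 0.0508 to 0.0708, or with small intestine 5, at 0.148, and Tagln, 2.17 ± 0.58, adjusted p = 0.028, lost without any 1 array other than small intestine 3 or blood 4, at 0.052 to 0.0893, with the block, at 0.0647, or with small intestine 5, at 0.128), and Col1a1, Col3a1, Dcn and Pdgfra were well above background on none of the 4 arrays.

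The transcripts that chose the arrays had the widest range. Alpha-defensins are antimicrobial peptides of Paneth cells, and 13 of their genes were tested. Their median level was 5.59, 6.63, 1.54 and 7.01 on small intestine 1 to 4, -2.75 on small intestine 5 and -3.24 to -1.90 on the blood arrays. Small intestine 3 again held the least of the 4. Their probes can share signal between near-identical copies, so single defensins are uncertain. In the intestinal epithelium list, Krt8, Cdh1, Fabp1, Muc2 and Alpi were well above background on none of the 4 arrays, whereas Reg3g, Lgals4, Krt19 and Tff3 were bright. Red cell genes were tested for none of the 6 with a probe. Of 13 neutrophil genes 2 were tested, the receptor genes Csf3r and Cxcr2, and 9, S100a8, Elane, Mpo, Camp, Ltf, Ngp, Retnlg, Mmp8 and Mmp9, were well above background on none of the 4 arrays.

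Lists that might mark settled tissue cells gave no call. Of 10 tissue residency genes tested (15 listed) 0 were called, with a median of 0.67 against 0.65 for the receptor families. Cd69, the marker of early activation and retention, had 0.79, 2.60, 0.51, -1.93 and -0.16 in blood and 2.51, 1.32, 3.01 and -0.31 in small intestine (1.27 ± 0.85, adjusted p = 0.243). Heat shock chaperones (0 of 11) and nutrient transporters (0 of 5) also had none. In the CD8 identity list 0 of 19 were called, with a median of -0.83. Cd8a had 3.93 to 5.08 in blood and 3.74, 2.84, 4.90 and 2.07 in small intestine (-1.13 ± 0.51, adjusted p = 0.122), and Cd3e differed by -0.68 ± 0.37 (adjusted p = 0.166).

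Liver and lung give a second look at the genes named above, in a fit over 19 arrays with 1 coefficient per site. Small intestine differed from liver in 894 of 7753 genes (11.5%) and from lung in 112 (1.44%). Without liver 5, whose Paneth cell genes averaged 2.33, it differed from liver in 1372 (17.7%). Dusp7 was lower than in liver by 2.97 (limma adjusted p = 0.016) and lower than in lung by 3.67 (adjusted p = 0.011). Itga4 had differences of -1.62 (adjusted p = 0.016) and -1.65 (adjusted p = 0.036) and Irf4 of -2.79 (adjusted p = 0.0097) and -2.54 (adjusted p = 0.037). Foxm1 was lower than in liver (-2.94, adjusted p = 0.026), as was Ccnb1 (-1.77, adjusted p = 0.030), while against lung neither was called. The gap between these sites was thus called for Dusp7, Itga4 and Irf4 in both organs, with the small intestine arrays the same in every contrast. The mean of the mitosis list ran from 1.17 (liver 5) to 2.78 on the liver arrays and from 0.79 (lung 4) to 2.36 on the lung arrays. Lung 4 thus lay within the range of small intestine 1 to 4, and liver 5 just above it.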

How the data were processed

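Of 20 arrays, 1 per sample, 9 entered the comparison, grouped by the site in their titles. Per the file headers, spots were read with Feature Extraction 11.0.1.1, and the processed signal used here is a linear intensity after background subtraction. Per the submitters' processing notes, version 10.7 and Partek were used. The log2 values in the authors' deposited table equal quantile-normalized log2 processed signal (median absolute difference 0.000108, column median 8.05), and they served as an alternative. Flags for outlier spots and for signal well above background were used as deposited.

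From the intensity, log2 signal minus the 75th percentile of the array was taken, without 1377 control and 10 non-uniform spots, and spots of a probe were averaged. RefSeq accessions gave 27508 of 39429 probes 1 symbol (20886 genes, the brightest probe each) and 11921 none. The test was limma's moderated one (limma 3.58.1, R 4.3.3, lmFit, eBayes, 7 residual degrees of freedom), two-sided, with Benjamini-Hochberg adjustment over 7753 genes. The procedure was tested on simulated data. Named were the 15 largest increases and decreases without overlap, up to 5 called members per T cell or process list, up to 3 members per other-cell list and fixed genes; of 783 list members 761 had a probe. The members and lists were chosen with earlier results of these data known.

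Each of 5 slides held 1 array per site with 1 replicate number, so slide and replicate block are the same model. Deviations of same-numbered arrays correlated at -0.177, 0.0997, 0.5 and -0.279, so the numbers were not taken to pair samples. Alternatives were other scalings, filters, blocks, sample sets, variance models, probe rules and the deposited table. Normexp on mean signals was not run, since the files used here hold median signals, which replaced them. That setting, the joint scaling and filter on detected probes, and the 3 settings on receptor families were chosen after seeing the data. Motifs were searched in RefSeq promoters of GRCm38.p6. Some genes of the lists are not reported here by name, though they stay in the counts.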

Additional observations from a re-analysis of the deposited data

Results flagged for a closer look

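In groups of this size chance sets apart about 1 group in 20. Both sites were checked for a set of single genes and for the list means, many groups in all. Some of the arrays below may thus be set apart by chance. Single arrays lay far from the rest of their group for the following values. Small intestine 3 was low for App (-1.22) and Ccne1 (-1.72). Small intestine 4 was low for Kit (-1.62, which is also the whole mast cell list), Klf2 (3.22) and Prdm1 (-2.30). Small intestine 1 was high for Ccr10 (-0.39) and Nfatc2 (-0.67). In blood, array 5 was low for Ccdc92 (1.70) and high for Tnfsf11 (0.96) and for the mean of the macrophage list (1.68). Blood 3 was low for Klf2 (4.17) and for the mean of the 2 tested neutrophil genes (4.40), and blood 1 for the mean of the cytokine receptor list (1.80).

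Some differences of small intestine from blood were also larger or smaller than those of another organ, since small intestine differed from that organ itself (limma adjusted p under 0.05). For liver and lung in turn these log2 differences were 5.94 and 6.90 for Jchain, -2.97 and -3.67 for Dusp7, -3.32 and -3.31 for Sh2d3c, -3.24 and -2.47 for Cdca2, -3.23 and -3.13 for Fam53b, -2.56 and -2.39 for Fam78a, and -2.33 and -2.35 for Iqcc. They were -1.62 and -1.65 for Itga4 and -2.79 and -2.54 for Irf4. Against liver alone the difference was called for Foxm1 (-2.94), Ccnb1 (-1.77) and Mcm2 (-1.82). The Jchain differences rest on arrays chosen by intestinal transcripts and carry little weight.

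An array outside the comparison, labelled liver 5, had a Paneth cell list mean of 2.33, above the highest blood array (-1.70).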

How the results depend on the processing

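Against 1366 genes called (219 higher, 1147 lower), 134 were called scaled on CD8 identity (69 and 65), 668 when testing was limited to genes above background on 9 of 9 arrays (49 and 619), 910 when these also set the scale (63 higher), 368 with small intestine 5 (35 and 333), 2071 with all sites in 1 fit (383 higher), 3103 with array weights (567 and 2536), 738 scaled on the non-following genes (357 and 381) and 2721 scaled on the receptor families (94 and 2627). Median scaling gave 111 higher and normexp 1786 lower. With the replicate block 598 were called (130 and 468), and the arrays share a number and a slide but were not shown to be paired. Leaving out 1 array gave 505 to 3237 called, 57 to 395 higher and 448 to 2842 lower, with counts over 1.5 times apart from 1366 without small intestine 2 (505), small intestine 3 (3237) and blood 2 (678), 3 (661), 4 (817) and 5 (669), and, for higher genes, without small intestine 1 (123). Of 46 mitosis genes 36 were lower here, 3 scaled on CD8 identity, 21 and 22 under the background filters without and with the matching scale, 20 with small intestine 5, 19 scaled on the non-following genes, and 30 to 40 with 1 array left out. The causes were not tested, apart from the smaller number of genes tested under the filters. Of 2727 pairs of a called named gene and a setting 2260 kept the call, 467 lost it and 0 reversed. Probes dim on all arrays of a group give bounds only, as for 179 called genes dim in small intestine and 63 dim in blood.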

Other observations

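Ramp3, which pairs with the calcitonin receptor-like receptor, was higher on small intestine 1 to 4 and on the array labelled small intestine 5 than on every blood array. It had 5.07, 4.67, 6.01 and 3.15 on small intestine 1 to 4, 3.72 on small intestine 5 and -2.76 to 1.85 in blood, 22.4-fold higher (limma adjusted p = 0.0081). In the SOCS and STAT5 target list 1 of 7 tested genes was higher and 0 lower (11 listed, median 0.10). The gene was Cish, which damps cytokine and T cell receptor signals, with -3.94 to 1.16 in blood and 1.30 to 3.16 in small intestine (3.18 ± 0.88, adjusted p = 0.032). Its call was lost when scaled on the receptor families (0.0723) and without small intestine 1 (0.0734), small intestine 2 (0.094), blood 1 (0.0578), blood 3 (0.0501) or blood 5 (0.0505).

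Of 19 interferon-stimulated genes tested 1 was higher and 2 were lower (34 listed, median -0.33). A match to the interferon response element was found in 46.2% of 26 promoters of the list and in 3.46% of all promoters. Ribosome biogenesis had 4 of 17 lower and 0 higher (20 listed, median -0.51). Cholesterol genes had 1 higher and 1 lower of 15 tested (23 listed, median 0.08), of which Tm7sf2, a sterol reductase, had 0.35 to 1.25 in blood and -1.01, -2.45, -0.52 and -2.54 in small intestine, 5.35-fold lower (adjusted p = 0.0059). Among Bcl2 family and death genes 1 of 10 was lower, Mcl1 (16 listed, median 0.40). The Mcl1 call was lost with the block (0.124), with the deposited table (0.101), with the mean of the gene's probes (0.102), with small intestine 5 (0.192) and without any 1 array other than small intestine 3 or blood 1 (0.0554 to 0.0983).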
